A study of Mus musculus with 15 samples.

Results

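The 8 genes described here encode proteins of cartilage other than its collagens: Sox9, Acan, Hapln1, Comp, Matn3, Matn4, Snorc and Cytl1. They were picked by name from the skin expression table, with earlier results of these libraries known, because their transcripts were found in samples labelled as skin. They are 8 of the 54532 genes in that table. All 8 passed the filter on low values (at least 0.5 FPKM in at least 3 libraries) and so belong to the 17646 genes tested. Matn3 fell short of that level in 2 treated wild type libraries, and the other 7 reached it in every library. Because levels in these libraries chose the genes, the levels below are a description, and the adjusted p-values are printed only to place each gene in the fit over all genes.

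The study concerned Trpv3, a heat-sensitive cation channel of keratinocytes, in neuroimmune inflammation of mouse skin. Its 12 skin libraries form 4 groups of 3: wild type skin without treatment, skin labelled Trpv3-knockout without treatment, wild type skin after MC903 for 7 days, and knockout skin after MC903 for 7 days. The agent, also known as calcipotriol, resembles vitamin D and is painted on mice to bring on a skin inflammation like that of atopic eczema. The series' design text speaks of conditional knockouts and names neither the Cre driver nor the cells it acts in. No vehicle is named for the untreated groups, and the labels leave out age, sex, strain background and the body site of the skin. Whether each library had its own mouse is not stated, and p-values therefore measure only the spread between libraries, which may be technical.

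Cartilage is a matrix made by chondrocytes. Its fibrils are built of collagens, and the space between them is filled by aggrecan, a large proteoglycan whose chondroitin sulfate chains hold water. Aggrecan binds hyaluronan through its globular end, and link protein locks that bond. Matrilins and COMP bridge fibrils and proteoglycans. The transcription factor SOX9 is required for chondrocytes to form and drives many of these genes, and it is also made by the stem cells and outer root sheath of hair follicles. Skin itself contains no cartilage, but cartilage underlies it at some body sites.

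Promoter sequences are shown for 3 of these genes to let their start regions be compared: Acan, whose level fell furthest in treated wild type skin, Cytl1, the most abundant of the 8, and Matn3, the least abundant. The windows run from 250 bases before to 50 bases after the start and come from RefSeq (GRCm38.p6, plus strand for all 3). For Cytl1 and Matn3 the start is that of the gene in the expression table, and for Acan the RefSeq start lies 257 bases upstream of it. The windows lie at chr7:79052976-79053275 for Acan, chr5:37735269-37735568 for Cytl1 and chr12:8947679-8947978 for Matn3. Capitals mark GGGCGG or its reverse complement CCGCCC, the GC box, and TTTAAA, an AT-rich hexamer.
Acan: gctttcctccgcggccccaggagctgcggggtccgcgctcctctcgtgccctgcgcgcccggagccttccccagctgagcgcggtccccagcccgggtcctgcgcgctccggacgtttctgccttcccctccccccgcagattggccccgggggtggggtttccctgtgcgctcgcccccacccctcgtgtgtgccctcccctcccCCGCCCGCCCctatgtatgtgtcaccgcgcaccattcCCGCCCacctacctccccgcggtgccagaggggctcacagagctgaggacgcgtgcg
Cytl1: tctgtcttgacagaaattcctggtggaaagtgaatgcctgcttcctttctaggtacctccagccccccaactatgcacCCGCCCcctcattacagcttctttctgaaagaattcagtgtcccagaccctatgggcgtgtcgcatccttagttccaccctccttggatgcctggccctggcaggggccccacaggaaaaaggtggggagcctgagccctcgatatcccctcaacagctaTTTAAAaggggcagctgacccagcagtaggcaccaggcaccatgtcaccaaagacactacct
Matn3: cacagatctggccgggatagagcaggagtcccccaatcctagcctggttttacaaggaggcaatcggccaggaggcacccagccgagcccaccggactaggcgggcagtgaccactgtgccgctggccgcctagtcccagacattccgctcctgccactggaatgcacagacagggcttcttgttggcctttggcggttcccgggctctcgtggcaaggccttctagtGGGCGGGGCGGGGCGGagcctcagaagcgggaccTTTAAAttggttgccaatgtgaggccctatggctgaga
The Acan window held 3 GC boxes, of which 2 overlap, and had a GC content of 74%, against a median of 53% over all promoters. The Matn3 window held 3 GC boxes that share bases with each other, and its GC content was 62.7%. The Cytl1 window held 1 GC box, and its GC content was 55%. TTTAAA began at position -12 from the start in Cytl1 and at position 12 in Matn3. RefSeq promoters were matched for 5 of the 8 genes, 6 windows in all since Matn4 had 2. None of the 6 held ACAAAG or ACAATG, letters that SOX proteins bind, on either strand, and none held TATAAA. Over 32544 mouse promoters of this length, 18.74% held ACAAAG, 12.38% held ACAATG, 35.88% held the GC box, 13.57% held TATAAA and 13.14% held TTTAAA on either strand. The absence of a motif says only that those letters are not in these windows.

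Levels are given as FPKM, fragments per kilobase of gene after scaling for library size, as the authors deposited them. The libraries held 16869716 to 18485698 reads, recovered from the FPKM values and gene lengths. Trpv3 itself was at 1.13 to 2.71 FPKM in untreated wild type skin and at 2.62 to 3.64 FPKM in untreated knockout skin, so it was not lower in the libraries labelled knockout without treatment. After MC903 it was at 16.1 to 19.0 FPKM in wild type and at 4.73 to 6.82 FPKM in knockout skin. Gene-level values cannot show which part of Trpv3 was deleted or in which cells, so "knockout" below means the library's label. Untreated wild type replicate 3 stood apart for some of the matrix genes. Its level over the mean of replicates 1 and 2 was 3.99 for Matn4, 3.05 for Comp, 2.50 for Matn3 and 1.78 for Snorc. That ratio was 1.48 for Cytl1, 1.38 for Acan, 1.196 for Hapln1 and 1.015 for Sox9. The median over 16003 genes was 0.985, and 2.48% of genes reached 2. The tendon gene Scx at 3.41, the muscle gene Actn3 at 2.34 and the cartilage collagen Col2a1 at 2.39 were also higher in that library. They had the highest ratios among the tendon, muscle and cartilage collagen genes read. The lowest there were 1.229 for Kera, 1.359 for Myh1 and 1.237 for Col27a1. Without untreated wild type replicate 3 the log2 change after MC903 in wild type skin was -2.75 for Acan, -1.22 for Comp and -1.08 for Matn3. It was -2.12 for Snorc, -1.84 for Cytl1, -1.74 for Hapln1 and -2.14 for Sox9, and all of these were still called. For Matn4 it was -0.06, and that gene was not called with the replicate either.

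In untreated wild type skin the mean level ran from 2.30 ± 1.39 FPKM (SD, n = 3) for Matn3 to 3789 ± 915 FPKM for Cytl1. Cytl1 ranked 5 of 17646 genes by mean FPKM, Snorc 385, Acan 388, Comp 936, Sox9 1073, Hapln1 3923, Matn4 10141 and Matn3 11423. After MC903 the ranks in wild type skin were 56, 3254, 4245, 4782, 5846, 9970, 12498 and 15985 in the same order. In treated knockout skin Cytl1 stood at rank 15, Acan at 980 and Snorc at 1355. Every one of the 8 ranked lower after MC903 than before it, in both genotypes.

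**Figure D1:**
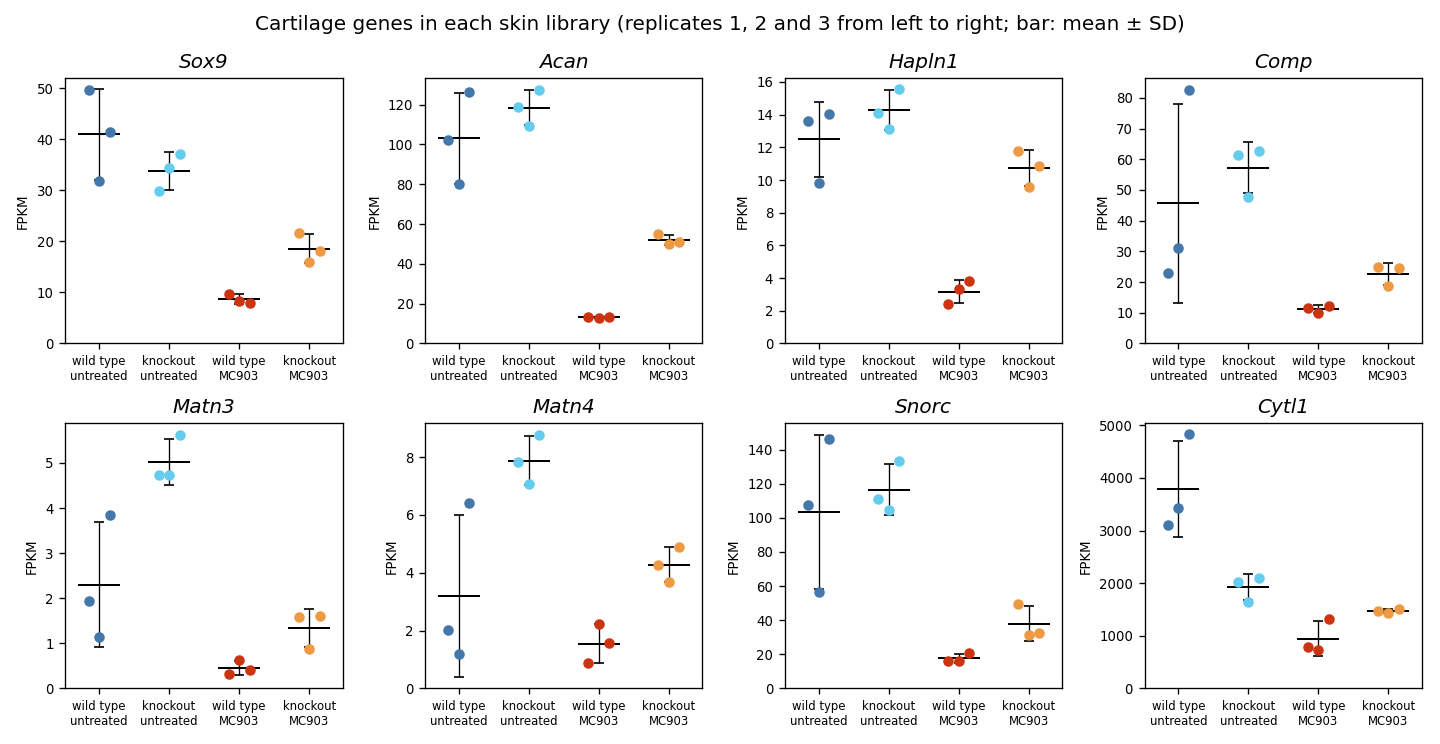
FPKM (linear axes from 0) of each of the 8 genes in each library, by group, with points for libraries and bars for the mean ± SD of 3 libraries. In 7 of the 8 panels the 3 treated wild type libraries lie below all untreated wild type libraries, Matn4 being the exception, and in all 8 panels they lie below the 3 treated knockout libraries.

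Sox9 is the chondrogenic transcription factor (ENSMUSG00000000567, mm10 chr11:112782224-112787760, plus strand, gene length 4135 bases). Its level was 49.6, 31.8 and 41.3 FPKM in untreated wild type skin and 29.8, 34.4 and 37.1 FPKM in untreated knockout skin. Treated wild type libraries had 9.77, 8.27 and 7.95 FPKM and treated knockout libraries 21.5, 16.0 and 18.2 FPKM. The untreated groups overlapped, all treated libraries were below all untreated ones, and the treated knockout libraries were above the treated wild type ones. In wild type skin Sox9 fell by 2.16 ± 0.16 (SE) on the log2 scale (limma adjusted p = 8.0e-07), 4.72-fold in mean FPKM, and in knockout skin it fell by 0.85 ± 0.16 (adjusted p = 0.0014), 1.82-fold. The response differed between genotypes by 1.31 ± 0.23 (adjusted p = 0.0013). Without treatment the genotypes differed by -0.26 ± 0.16, knockout minus wild type, which did not pass (adjusted p = 0.33) except with a weight fitted to each library (-0.50, adjusted p = 0.011).

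Acan encodes aggrecan (ENSMUSG00000030607, mm10 chr7:79053483-79115099, plus strand, gene length 7469 bases). It was at 102.5, 80.3 and 126 FPKM in untreated wild type skin and at 119, 109 and 127 FPKM in untreated knockout skin, 2 groups that overlapped. After MC903 the wild type libraries were at 13.3, 12.6 and 13.4 FPKM and the knockout libraries at 55.0, 49.9 and 51.2 FPKM. The treated wild type mean was 13.1 ± 0.402 FPKM (SD, n = 3) against 103 ± 23.0 FPKM without treatment, and the treated libraries of both genotypes were apart from each other and from all untreated libraries. Acan fell by 2.90 ± 0.14 on the log2 scale in wild type skin (limma adjusted p = 3.4e-08), 7.86-fold, and in knockout skin it fell by 1.18 ± 0.14 (adjusted p = 5.2e-05), 2.28-fold. Treated knockout skin was 3.97-fold above treated wild type skin (log2 difference 1.95 ± 0.14, adjusted p = 2.7e-06), and the 2 responses differed by 1.73 ± 0.19 (adjusted p = 0.00012), the largest such difference among the 8 genes. Without treatment the difference of 0.22 between genotypes did not pass (adjusted p = 0.32). It did pass without wild type replicate 3, at 0.38 (adjusted p = 0.032).

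Hapln1 encodes link protein, the partner of aggrecan on hyaluronan (ENSMUSG00000021613, mm10 chr13:89539796-89611652, plus strand, gene length 5902 bases). Its level was 13.6, 9.83 and 14.0 FPKM in untreated wild type and 14.1, 13.1 and 15.6 FPKM in untreated knockout skin. With MC903 the level was 2.39, 3.31 and 3.81 FPKM in wild type and 11.8, 9.59 and 10.9 FPKM in knockout skin. The treated knockout libraries lay inside the span from the lowest to the highest untreated wild type library for 2 of 3, whereas all treated wild type libraries lay below it. Hapln1 fell by 1.83 ± 0.16 on the log2 scale in wild type skin (limma adjusted p = 3.1e-06), 3.93-fold. In knockout skin the change of -0.39 ± 0.16 did not pass (adjusted p = 0.069), although the groups did not overlap. It passed under 7 alternatives: after scaling to TPM, at -0.58 (adjusted p = 0.0080), or to total reads, at -0.46 (0.039), with library weights, at -0.39 (0.025), with voom, at -0.41 (0.037), and in a fit of the 2 knockout groups alone (0.0137). With the value kept and a smaller shared spread, it also passed without untreated wild type replicate 2 or treated wild type replicate 1 (adjusted p = 0.039 for each). The responses differed by 1.43 ± 0.23 (adjusted p = 0.00088). A processed pseudogene, Gm8546, shares 1264 bases with Hapln1 on the opposite strand and was at 0.248 FPKM or less.

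Comp encodes the pentameric cartilage oligomeric matrix protein, which is made in cartilage and in tendon (ENSMUSG00000031849, mm10 chr8:70373558-70382066, plus strand, gene length 2967 bases). It was at 23.0, 31.2 and 82.7 FPKM in untreated wild type skin, where replicate 3 was far above the others, and at 61.3, 47.6 and 62.6 FPKM in untreated knockout skin. Treatment with MC903 left 11.7, 9.80 and 12.3 FPKM in wild type and 24.8, 18.6 and 24.5 FPKM in knockout skin. Comp fell by 1.76 ± 0.36 on the log2 scale in wild type skin (limma adjusted p = 0.0012) and fell by 1.32 in knockout skin (adjusted p = 0.011). With library weights the change in wild type skin was -1.13 (adjusted p = 0.0013). The responses differed by 0.44, which did not pass (adjusted p = 0.52), and without untreated wild type replicate 3 that difference was -0.10 (adjusted p = 0.76). Without treatment the genotype difference was 0.53 (adjusted p = 0.36) with all libraries and 1.07 (adjusted p = 0.0040) without that replicate. With library weights it was 1.16 (adjusted p = 0.0016).

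Matn3 encodes a matrilin of cartilage (ENSMUSG00000020583, mm10 chr12:8947929-8972028, plus strand, gene length 3014 bases) and was the least abundant of the 8. It was at 1.93, 1.14 and 3.83 FPKM in untreated wild type skin and at 4.74, 4.73 and 5.61 FPKM in untreated knockout skin. After MC903 it was at 0.317, 0.633 and 0.415 FPKM in wild type skin, which rests on 16, 31 and 21 reads, and at 1.57, 0.863 and 1.60 FPKM in knockout skin. The 4 groups did not overlap pairwise except that 2 of the 3 treated knockout libraries lay within the range of untreated wild type skin. Matn3 fell by 1.45 ± 0.30 on the log2(FPKM + 0.5) scale in wild type skin (limma adjusted p = 0.0014), which understates the 5.06-fold difference of the means, and it fell by 1.61 in knockout skin (adjusted p = 0.0012), 3.74-fold. With voom on recovered reads, the change in wild type skin was -2.18 (adjusted p = 0.0027). The difference of the responses, -0.16, did not pass (adjusted p = 0.79).

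Matn4 encodes a matrilin with a wider distribution (ENSMUSG00000016995, mm10 chr2:164389393-164405160, minus strand, gene length 5174 bases). It was at 2.03, 1.18 and 6.41 FPKM in untreated wild type skin and at 7.82, 7.07 and 8.75 FPKM in untreated knockout skin. Under MC903 Matn4 was at 0.867, 2.21 and 1.57 FPKM in wild type skin, where it overlapped the untreated group, and at 4.28, 3.68 and 4.88 FPKM in knockout skin. Matn4 was the single gene of the 8 that did not pass in wild type skin, with a log2 change of -0.65 ± 0.42 (limma adjusted p = 0.20). It passed there without untreated wild type replicate 2, at -1.09 (adjusted p = 0.030), and after scaling to TPM, at -1.0 (adjusted p = 0.046). In knockout skin the change of -0.81 did not pass either (adjusted p = 0.13). It passed without untreated wild type replicate 3, which leaves the value and lowers the shared spread (adjusted p = 0.015), with library weights, at -0.84 (adjusted p = 0.011), and in a fit of the 2 knockout groups alone (adjusted p = 0.0016). The difference of the responses, -0.17, did not pass (adjusted p = 0.84). Matn4 shares 2020 bases with Rbpjl on the opposite strand, and Rbpjl was at 0.464 FPKM or less, while strand is not stated to have been used in counting.

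Snorc encodes a small transmembrane proteoglycan of chondrocytes (ENSMUSG00000026258, mm10 chr1:87470271-87475482, plus strand, gene length 722 bases). It was at 108, 56.5 and 146 FPKM in untreated wild type and at 111, 105 and 133 FPKM in untreated knockout skin. After MC903 it was at 16.1, 16.2 and 20.8 FPKM in wild type and at 49.6, 31.6 and 32.6 FPKM in knockout skin. It fell by 2.42 ± 0.29 on the log2 scale in wild type skin (limma adjusted p = 3.0e-05), 5.85-fold, and fell by 1.63 in knockout skin (adjusted p = 0.00098), 3.07-fold. The difference of the responses, 0.79, did not pass (adjusted p = 0.15). It passed without untreated wild type replicate 2, the lowest of its group, at 1.17 (adjusted p = 0.011), after scaling to TPM, at 1.07 (adjusted p = 0.043), and with library weights, at 0.96 (adjusted p = 0.021). Without untreated wild type replicate 3 it was 0.49 (adjusted p = 0.29).

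Cytl1 encodes a small secreted cytokine-like protein found in cartilage (ENSMUSG00000062329, mm10 chr5:37735519-37739820, plus strand, gene length 1056 bases). It was at 3103, 3435 and 4827 FPKM in untreated wild type skin and at 2028, 1644 and 2104 FPKM in untreated knockout skin. After MC903 it was at 797, 721 and 1324 FPKM in wild type skin and at 1464, 1432 and 1506 FPKM in knockout skin. No 2 of the 4 groups overlapped, and their order differed from that of Acan: untreated wild type was highest, then untreated knockout, treated knockout and treated wild type. Cytl1 fell by 2.03 ± 0.24 on the log2 scale in wild type skin (limma adjusted p = 2.6e-05), 4.0-fold, while the change of -0.38 in knockout skin did not pass (adjusted p = 0.21). It passed after scaling to TPM (-0.58, adjusted p = 0.038) and, at the same value, in a fit of the 2 knockout groups alone (adjusted p = 0.038). The responses differed by 1.64 ± 0.34 (adjusted p = 0.0034). Without treatment Cytl1 was 1.97-fold lower in knockout than in wild type skin (log2 difference -0.96, adjusted p = 0.028), and in treated skin it was 1.55-fold higher in knockout skin (0.68, adjusted p = 0.033).

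After MC903 in wild type skin, 7 of the 8 genes were called lower. Of all genes tested, 63% were called there, and 30.3% were called lower. The median log2 change was -1.93 over the 8 genes and 0.02 over all genes tested. The groups did not overlap for 7 of the 8, where 31.1% of all genes were lower without overlap. In bulk tissue, fewer cells of a type and less RNA per cell cannot be told apart. In knockout skin 5 of the 8 were called, Sox9, Acan, Comp, Matn3 and Snorc, all lower, against 47.9% of all genes called and 23% called lower, with medians of -1.02 and -0.0014. All 8 were lower without overlap in knockout skin, against 31% of all genes.

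In treated skin all 8 genes were called higher in knockout than in wild type libraries, against 52.1% of all genes called and 25.9% called higher, and none overlapped, against 31%. The median difference was 1.05 over the 8 and -0.03 over all genes tested. Sox9 (1.05 ± 0.16), Acan, Hapln1 (1.63 ± 0.16) and Snorc (1.06 ± 0.29) were called under every alternative setting run. The calls of Comp, Matn3, Matn4 and Cytl1 were close to the threshold, at log2 differences of 0.97, 0.94, 1.27 and 0.68 and adjusted p-values of 0.041, 0.023, 0.0245 and 0.033, and each ended without some of the libraries. All 4 ended without wild type replicate 1 and without knockout replicates 1 and 3 of the treated groups, at adjusted p-values of 0.057 to 0.112. Comp and Cytl1 also ended without treated wild type replicate 2, Cytl1 without treated knockout replicate 2, Comp, Matn3 and Matn4 without treated wild type replicate 3, and Comp without untreated knockout replicate 1 or 3, at adjusted p-values of 0.0508 to 0.124. With no filter on low values all 4 calls ended too, and that of Cytl1 also in a fit of the treated groups alone (adjusted p = 0.0549). The direction was the same in each case. The difference of the MC903 response passed for 4 of the 8, Acan, Hapln1, Sox9 and Cytl1, all towards a smaller fall in knockout skin, against 39.7% of all genes called and 20% called in that direction. These comparisons share libraries with one another, so their calls are not independent.

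Without treatment 3 of the 8 were called between genotypes, against 11.7% of all genes, with 7.15% of all genes higher and 4.55% lower in knockout skin. Matn3 and Matn4 were higher in knockout skin, by 1.09 (limma adjusted p = 0.040) and 1.44 (adjusted p = 0.048), and Cytl1 was lower. The same 3 were apart without overlap, 2 higher and 1 lower, against 16.9% and 14.2% of all genes. The 2 matrilin calls ended without untreated wild type replicate 1 or 2 and without any of the 3 untreated knockout replicates, at log2 differences of 0.76 to 1.51 and adjusted p-values of 0.0964 to 0.143. Both also ended, with the values kept and adjusted p-values of 0.0502 to 0.0661, without treated wild type replicate 1 or 3 or treated knockout replicate 1, and Matn4 did so without any 1 of the 6 treated libraries. The Cytl1 call ended without untreated wild type replicate 2 or any untreated knockout replicate, at -0.85 to -1.03 and adjusted p-values of 0.0556 to 0.115. All 3 calls ended with no filter on low values and in a fit of the untreated groups alone, and both matrilin calls with a pseudocount of 0.1 (adjusted p = 0.058 and 0.057). Without untreated wild type replicate 3, 5 of the 8 were called, 4 of them higher, with Acan and Comp added, and the differences were then 1.47 for Matn3, 2.02 for Matn4 and -0.77 for Cytl1 (adjusted p = 0.0033, 0.0013 and 0.045). Hapln1 and Snorc, at 0.20 ± 0.16 and 0.26 ± 0.29, did not pass with all libraries (adjusted p = 0.47 and 0.60).

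**Figure D2:**
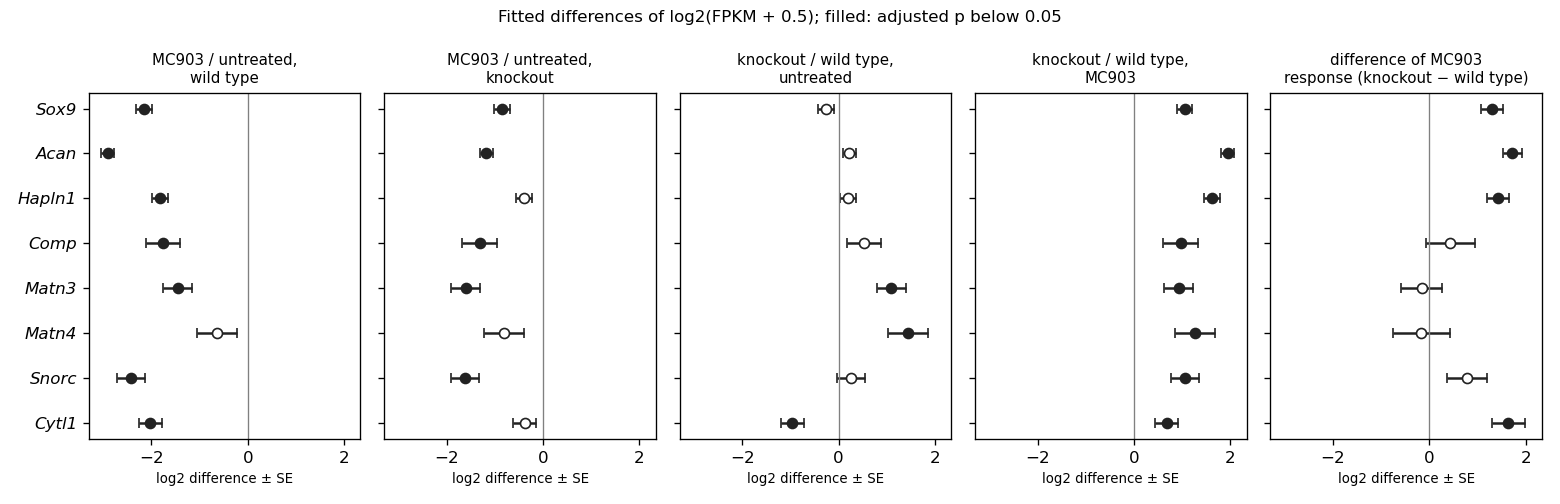
Log2 difference of FPKM + 0.5 for each of the 8 genes in 5 comparisons, with bars of 1 standard error from limma and filled points where the adjusted p was below 0.05. Both MC903 comparisons lie below 0 for every gene, the comparison of genotypes after MC903 lies above 0 for every gene, and the untreated comparison lies on both sides of 0, with Cytl1 lowest at -0.96 and Matn4 highest at 1.44. In the difference of the MC903 responses the filled points are Sox9, Acan, Hapln1 and Cytl1.

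The scale of the libraries moved the whole table but no called direction of the 8. The deposited FPKM behaved as already scaled between libraries. Scaling to TPM instead shifted the median of all genes by -0.38 in wild type skin and by -0.16 in knockout skin after MC903, and by 0.24 between treated genotypes. The share of called genes that were higher went from 51.8% to 26.3%, from 52.1% to 33.3% and from 49.8% to 73.7% in these 3 comparisons, and from 50.3% to 71.9% for the difference of responses. With scaling to total reads the shares were 39.8% in wild type skin after MC903, 62.0% for the difference of responses and 49.6% instead of 61.1% between untreated genotypes. After scaling to TPM all 8 genes were called lower in treated wild type skin, 7 lower in treated knockout skin and all 8 higher in treated knockout than in treated wild type skin.

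Ratios within a library do not depend on that scale. Hapln1 over Acan was 0.111 to 0.133 in untreated wild type and 0.119 to 0.122 in untreated knockout skin, a nearly constant value over 6 libraries. It was 0.180 to 0.285 in treated wild type and 0.192 to 0.214 in treated knockout skin, with no overlap with the untreated groups of either genotype. Sox9 over Acan was 0.327 to 0.484 in untreated wild type and 0.251 to 0.315 in untreated knockout skin, then 0.594 to 0.737 in treated wild type and 0.321 to 0.392 in treated knockout skin. Cytl1 over Acan was 30.3 to 42.8, 15.01 to 17.1, 57.0 to 98.9 and 26.6 to 29.4 in the same order of groups. For both of these ratios the groups were apart in all 4 comparisons, and the knockout value was below the wild type value with and without treatment. Comp over Acan was higher in treated than untreated wild type skin, at 0.775 to 0.917 against 0.2245 to 0.654, but overlapped in knockout skin, at 0.373 to 0.478 against 0.435 to 0.517. Matn4 over Acan was 0.0147 to 0.0507 in untreated wild type, 0.0646 to 0.0687 in untreated knockout, 0.0653 to 0.175 in treated wild type and 0.0738 to 0.0953 in treated knockout skin, apart between treated and untreated libraries of each genotype. Snorc over Acan went opposite ways, from 0.704 to 1.16 up to 1.22 to 1.55 in wild type skin and from 0.935 to 1.05 down to 0.633 to 0.902 in knockout skin. Matn3 over Matn4 was lower after MC903 in both genotypes, at 0.265 to 0.366 against 0.598 to 0.963 in wild type and at 0.235 to 0.367 against 0.606 to 0.669 in knockout skin. With 3 libraries against 3 an exact two-sided permutation test cannot give a p below 0.1, and every ratio whose groups were apart reached exactly that value.

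**Figure D3:**
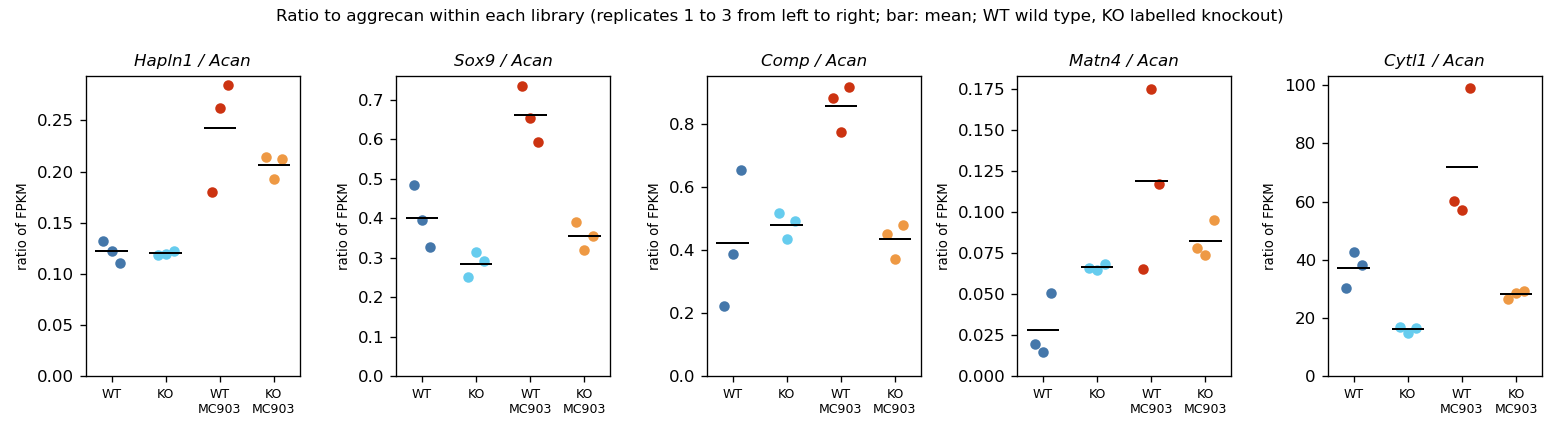
Ratio of the FPKM of Hapln1, Sox9, Comp, Matn4 and Cytl1 to that of Acan (linear axes from 0) in each library, by group, with a bar at the mean; WT is wild type and KO labelled knockout. Sox9 and Cytl1 over Acan separate the 4 groups in each of the 4 comparisons, and Hapln1 over Acan separates treated from untreated libraries.

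The other genes of the tissue were read from lists that also were made with earlier results known. All 7 cartilage collagens were called lower after MC903 in both genotypes, with medians of -2.08 in wild type and -2.03 in knockout skin, against -1.93 and -1.02 for the 8 genes. Col2a1, the main fibril collagen of cartilage, had log2 changes of -2.61 in wild type and -2.03 in knockout skin, and Col11a1 had -2.37 and -1.55. For the collagens 1 of 7, Col11a1, was called for a difference of response (0.82, limma adjusted p = 0.013), where 39.7% of all genes were called in either direction and 20% in that one. Whether the collagens and the 8 genes differ in this was not tested. Between treated genotypes 5 of 7 were called higher in knockout skin, against 25.9% of all genes, with a median difference of 1.09. Without treatment 3 of 7, Col9a2, Col11a1 and Col9a1, were already called higher in knockout skin and 0 lower, with a median difference of 0.86. Of all genes, 7.15% were called higher there. Of 9 other cartilage matrix and secreted genes tested, 4 were called lower in wild type and 5 in knockout skin. Of all genes, 30.3% and 23% were called lower there. In wild type and knockout skin the log2 changes were -3.90 and -1.51 for Cnmd, which encodes the angiogenesis inhibitor chondromodulin, -3.83 and -1.56 for Clec3a, and -3.13 and -1.63 for Cilp, all called. These 3 and Chad also passed for the difference of response, at 1.51 to 2.39. Ucma, Prg4, Epyc and Scrg1 did not pass in either genotype after MC903, and Matn1, a matrilin that marks cartilage of the airway among others, was at 0.081 FPKM or less in every library. Untreated levels of Chad, Cnmd and Clec3a averaged 671, 113 and 58.8 FPKM in wild type skin.

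Of 6 regulators of chondrocytes tested, all were called lower in wild type skin and 5 in knockout skin, against 30.3% and 23% of all genes. Sox5 and Sox6, the partners of SOX9 on cartilage enhancers, had log2 changes of -2.01 and -1.37 in wild type and -0.80 and -0.88 in knockout skin, all called, and both passed for the difference of response, at 1.21 and 0.49. Trps1 was the third that passed for it, where 20% of all genes passed in that direction. Fgfr3, Pth1r and Wwp2 did not pass there. Of 7 hypertrophic cartilage and bone genes tested, 3 were called higher and 3 lower in wild type skin, and 2 higher and 3 lower in knockout skin. In either direction 63% of all genes were called in wild type and 47.9% in knockout skin. Of those called genes, 51.8% and 52.1% were higher. In wild type and knockout skin the log2 changes were -1.95 and -1.36 for Col10a1, the collagen of hypertrophic cartilage, 1.73 and 1.71 for Spp1, which encodes osteopontin, and 0.55 and 1.93 for Alpl, an alkaline phosphatase, all called. Ihh, Sp7, Dmp1 and Bglap did not reach the filter.

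**Figure D4:**
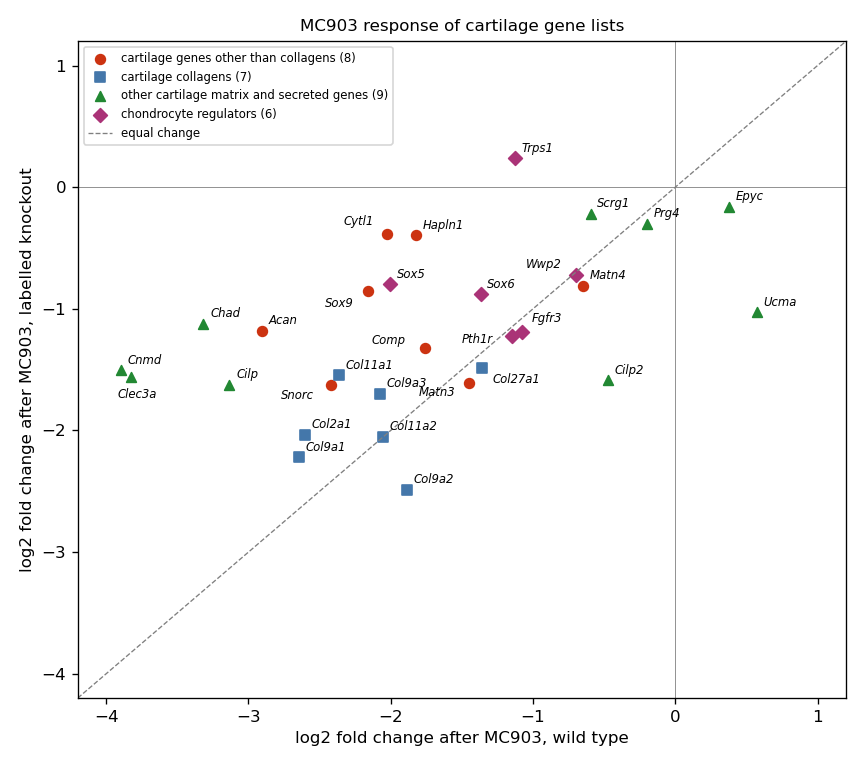
Log2 change after MC903 in wild type (x axis) and knockout skin (y axis) for the 8 genes, 7 cartilage collagens, 9 other cartilage genes and 6 regulators of chondrocytes; the dashed line marks equal change. Acan, Hapln1, Sox9 and Cytl1 lie above the line with Cnmd, Clec3a, Chad and Cilp. Matn3 and Matn4 lie close to it, as do Col11a2 and Col27a1 among the collagens. Ucma, Cilp2, Col9a2 and Epyc lie below the line, with differences of response of -1.60, -1.11, -0.605 and -0.54 that did not pass.

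Genes that build the chondroitin sulfate chains of aggrecan were called lower for 9 of 11 in wild type and 6 of 11 in knockout skin, with medians of -1.12 and -0.53. Of all genes, 30.3% and 23% were called lower there. The log2 changes in wild type and knockout skin were -2.48 and -0.53 for Chst11, a chondroitin sulfotransferase, -2.56 and -0.81 for Xylt1, which starts the chains, and -1.76 and -0.81 for Chst12, all called. The difference of response passed towards a smaller fall in knockout skin for 7 of 11, against 20% of all genes, and in the other direction for 1, Chpf. Of 13 genes of aggrecan and hyaluronan turnover, 7 were called higher and 3 lower in wild type skin, and 7 higher and 1 lower in knockout skin. For comparison, 63% of all genes were called in wild type and 47.9% in knockout skin. Of those called genes, 51.8% and 52.1% were higher. Mmp13, a collagenase of cartilage, rose by 6.43 and 6.65, from 0.225 to 63.1 FPKM in wild type and from 0.516 to 99.4 FPKM in knockout skin. Adamts4, an aggrecanase, rose by 1.60 and 2.16, and Has3, a hyaluronan synthase, by 3.35 and 2.47. Timp3, an inhibitor of aggrecanases, was called lower in both, at -3.49 and -0.66, and its difference of response was 2.82 (limma adjusted p = 3.1e-05). Adamts5, the other main aggrecanase, did not pass in wild type skin (-0.18) and rose by 0.49 in knockout skin.

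Among 7 tested relatives of the 8 genes, 3 were called lower in wild type skin, and in knockout skin 5 were lower and 1 higher. Of all genes tested, 30.3% were called lower in wild type and 23% in knockout skin. Thbs4, of the same family as Comp, was called lower in both, at -1.82 and -0.98, and so was Matn2, at -0.52 and -0.74. Vcan, which encodes versican, the proteoglycan relative of aggrecan found in soft tissue, had a change of -0.38 in wild type skin that did not pass (limma adjusted p = 0.11) and rose by 1.09 in knockout skin. Acan over Vcan was 18.4 to 44.9 in untreated wild type, 19.9 to 21.9 in untreated knockout, 4.61 to 6.96 in treated wild type and 3.57 to 5.29 in treated knockout skin. Hapln2, Hapln4, Ncan and Bcan did not reach the filter.

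Markers of other cell types also differed between the groups, not all in the direction of the 8 genes. The summed FPKM of 7 dermal fibroblast markers was 1126 to 2023 in untreated wild type, 4489 to 5193 in untreated knockout, 529 to 656 in treated wild type and 1737 to 2218 in treated knockout skin, and all 7 were called lower after MC903 in wild type skin, and 3 lower and 1 higher in knockout skin. The sum of 5 tendon markers was 250 to 552, 385 to 472, 40.3 to 47.2 and 140 to 185 in the same order, with all 5 called lower in both genotypes. The sum of 7 basal keratinocyte markers was 1726 to 2019, 2012 to 2302, 12360 to 17300 and 3489 to 4877, so that treated wild type skin had the highest level. After MC903 6 of these 7 were called higher and 1 lower in wild type skin, and 3 higher and 2 lower in knockout skin. Among all genes, 63% were called after MC903 in wild type and 47.9% in knockout skin, 30.3% and 23% being lower. Of those called genes, 51.8% and 52.1% were higher. For 8 skeletal muscle markers the sums were 2350 to 4534, 1728 to 2291, 1588 to 2225 and 570 to 881. After MC903 3 of these 8 were called lower in wild type skin and 7 in knockout skin. All 8 were called lower in treated knockout than in treated wild type skin, the opposite of the 8 cartilage genes. In that comparison 52.1% of all genes were called in either direction, and 49.8% of those called were higher in knockout skin. For 7 hair follicle markers, a compartment that also makes Sox9, the sums were 309 to 466, 289 to 325, 179 to 264 and 55.5 to 76.7. Krt15, also counted among the basal keratinocyte markers, averaged 363, 274, 160 and 33.5 FPKM in the same order. Of 6 tested, 2 were called higher and 3 lower after MC903 in wild type skin, and 1 higher and 4 lower in knockout skin. In treated knockout against treated wild type skin 5 were called lower and 1 higher, beside the same 52.1% of all genes called and 49.8% of those higher. Which cells made the Sox9 transcripts was not tested. The sums of 5 adipocyte markers were 340 to 519, 211 to 239, 130 to 178 and 105 to 158, and those of 4 vessel markers were 111 to 127, 77.3 to 88.6, 41.8 to 49.7 and 103 to 140. All 5 adipocyte and all 4 vessel markers were called lower after MC903 in wild type skin, and in knockout skin 3 of 5 were lower and 2 of 4 higher. No list's sum was at 0 in any library. The part that the mixture of cells has in the differences of the 8 genes was not tested. Acan over Dcn, the fibroblast proteoglycan decorin, was 0.163 to 0.203 and 0.188 to 0.208 in untreated wild type and knockout skin, 0.0693 to 0.0836 in treated wild type and 0.0984 to 0.112 in treated knockout skin, lower after MC903 in both genotypes without overlap. That depends on the marker chosen. In knockout skin the log2 changes were -1.96 for Col1a1, -2.07 for Col1a2 and -1.28 for Col3a1, falls larger than the 1.18 of Acan. For Dcn, Lum, Fbn1 and Pdgfra they were -0.32, -0.04, -0.09 and 0.42. Of the genes that mark body position, Hoxa9 and Hoxc10 were listed at 0 in all 12 libraries, and Hoxc6, Hoxc8 and Hoxc9 at 0.174 FPKM or less. In untreated wild type skin Hoxd8 averaged 9.62 FPKM, Hoxd9 5.845 FPKM, Hoxa2 4.72 FPKM and Hmx1 0.525 ± 0.801 FPKM (SD, n = 3).

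Among the 28 pairs of the 8 genes, Pearson's r of log2(FPKM + 0.5) over the 12 libraries ran from 0.30 for Matn4 with Cytl1 to 0.96 for Acan with Hapln1, with a median of 0.84. These values include differences between the 4 groups as well as those within them. After each group's mean was subtracted, the median was 0.65 and the range ran from -0.18 for Sox9 with Cytl1 to 0.93, reached by Acan with Snorc and by Matn3 with Matn4. Sox9 with Comp was at 0.01. These are descriptions over 12 libraries in 4 groups, and untreated wild type replicate 3, high for most of these genes, is among them. Of 12656 genes, those closest to Acan after the group means were subtracted were Fbxo2 at 0.98 and Col9a3, a collagen of cartilage, at 0.97, and Col9a3 was also second for Snorc at 0.96, behind Wwp2, a ubiquitin ligase, at 0.96. Matn3 was closest to the fibroblast collagen Col1a2 at 0.96, with Mfap4 and Col9a1 also among its nearest 5, and Matn4 was close to Bicc1 at 0.98 and Mfap4 at 0.97. Comp was closest to Vasn at 0.98, Hapln1 to Ppp1r3c and Sox9 to Bloc1s5. Cytl1 was closest to Fabp3 at 0.95. After that subtraction no gene of the cartilage lists was among the nearest 5 of Cytl1, nor among those of Comp, Matn4, Sox9 or Hapln1. Those of Hapln1 included Papss2, from the list for chondroitin sulfate chains. Over the 12 libraries with group means kept, Sdk2 was closest to Acan at 0.998 and Chadl, a relative of chondroadherin, to Snorc at 0.99. Cilp2 was then among the nearest 5 of Matn4 at 0.97, and Col9a1 among those of Matn3 at 0.99.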

How the data were processed

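Poly-A RNA of 12 skin samples was sequenced, and the 3 dorsal root ganglion samples of the series were not analysed here. Per the submitters' processing notes, mm10 and featureCounts were used, and the values in FPKM are as the authors deposited them. No source used here gives the aligner, the annotation release or the use of strand. FPKM times gene length, with 1 factor per library, gave whole reads for 100% of values within 0.01. The denominators so recovered were 0.917 to 1.115 times the read totals and followed size factors to within 0.696%, so no further scaling was applied. Genes with at least 0.5 FPKM in at least 3 libraries, 17646 in number, were fitted with limma 3.58.1 (R 4.3.3) on log2(FPKM + 0.5) over the 4 groups, with 8 residual degrees of freedom and a mean trend. Fold changes on this scale understate the change of low genes. Two-sided p-values had Benjamini-Hochberg adjustment over all genes tested within each comparison, and the threshold was 0.05. All adjusted p-values come from limma, and the scripts were tested on simulated data. Ratios were computed in Python 3.11.15 with exact permutation tests (scipy 1.17.1).

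The 8 genes, the gene lists and the rule for naming genes were chosen with earlier results of these data known. The rule named the 8 genes, up to 3 genes per list and comparison by smallest adjusted p, the cartilage collagens, and the 5 genes most like each of the 8. A few other list genes, the TTTAAA motif and scaling to total reads were chosen with their values in view. The alternatives were pseudocounts of 0.1 and 1, no filter and a filter of 1 FPKM, TPM, total reads, robust moderation, library weights, voom on recovered reads, a replicate block, the compared groups alone, and leaving out each library. Coordinates of all 8 genes equalled those of the GRCm38 reference annotation.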

Additional observations from a re-analysis of the deposited data

Results flagged for a closer look

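The response to MC903 differed between wild type and labelled knockout skin for 4 of the 8 genes, by the test of the difference itself (limma, interaction of genotype and treatment, adjusted over all genes). The difference, knockout minus wild type response on the log2 scale, was 1.73 for Acan, 1.64 for Cytl1, 1.43 for Hapln1 and 1.31 for Sox9. In each the fall was smaller in knockout skin, and 39.7% of all genes tested had such a difference in either direction. For Cytl1 the untreated level was also lower in knockout skin (log2 difference -0.96), which enters its difference of responses. With 3 libraries per group no single library was tested for standing apart.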

How the results depend on the processing

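Over the 8 genes, 5 comparisons and all alternatives, 825 of 912 values kept their direction and side of the threshold, 56 lost the call, 21 gained it and 10 changed sign. None that changed sign was called. Those were, for the difference of responses, Matn3 with a pseudocount of 0.1 (0.12), with voom (0.24), without untreated wild type replicate 2 (0.17) and without treated knockout replicate 2 (0.046), Matn4 with TPM (0.00674), without untreated wild type replicate 2 (0.27) and without treated wild type replicate 2 (0.063), Comp with library weights (-0.20) and without untreated wild type replicate 3 (-0.0991), and between untreated genotypes Snorc without untreated wild type replicate 2 (-0.12). With 1 library left out these ranged, for the difference of responses, from -0.53 to 0.17 for Matn3, from -0.75 to 0.27 for Matn4 and from -0.0991 to 0.81 for Comp, and for Snorc between untreated genotypes from -0.12 to 0.56.

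The number of the 8 genes called between untreated genotypes, 3 of 8, was 1 with a pseudocount of 0.1, 0 with no filter, 5 with library weights, 0 in a fit of those groups alone, and 0 to 5 when 1 library was left out. Where limma called 0, 3 or 4 of the 8 had an unadjusted p below 0.05, and voom on all libraries called 3. Over all genes 2064 were called there, against 6548 with library weights, 613 in the groups alone and 752 to 3562 with 1 library left out. In knockout skin after MC903, 8 instead of 5 were called in the groups alone. Between treated genotypes, 4 instead of 8 were called with no filter and 4 to 8 with 1 library left out. For the calls lost, the cause was not tested beyond the change of the fit itself.

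Same-numbered libraries of different groups had deviations that correlated at -0.13 to 0.169. This shows no clear pairing by replicate number but cannot exclude one, since differently numbered libraries were not compared. A fit with the replicate block called 7, 5, 3, 8 and 4 of the 8 genes in the 5 comparisons, as without the block. Matn3 in treated wild type skin rests on 16 to 31 reads per library, which limits the precision of its fold change.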
